A study of Homo sapiens with 32 samples.

Results

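The genes described here carry out DNA break signalling and end joining. The 31 members were set as a list of gene symbols, among 59084 genes of the RefSeq table of GRCh38.p14 on chromosomes 1 to 22 and X. All 31 were matched by symbol. A member's peaks are the N6-methyladenosine (m6A) peaks that overlap its gene body by at least 1 bp, on either strand, in any of 12 deposited peak lists (build hg38). A peak was found in 29 members, and in 19156 genes in all.

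The peaks come from MeRIP-seq of chromatin-associated RNA, a pull-down of fragmented RNA by antibody against m6A, in 4 established human lines: OVCAR8 and SKOV3 from the ovary, LOVO and RKO from colon adenocarcinoma. In each line, cells labelled with the genotype WT (titled shControl or Control, called control below) are set against cells labelled METTL3 knockdown (titled shMETTL3). METTL3 is the catalytic subunit of the main m6A methyltransferase. No treatment is named for any group. The sources used here do not give the hairpin sequences or say whether a line was cloned or pooled. Each group of OVCAR8 and SKOV3 has 2 lists, while those of LOVO and RKO have 1 and so no replicate. The labels do not state separate cultures for replicates, so any p-value reflects only how far these lists spread, possibly for technical reasons.

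When both strands of DNA are cut, the kinase ATM is activated and marks the histone variant H2AX, and MDC1, RNF8 and RNF168 then build a chromatin signal that TP53BP1 reads. TP53BP1, RIF1 and the shieldin complex protect the ends and favour their direct joining by the Ku proteins, DNA-PKcs, Artemis and DNA ligase IV. Where ends are trimmed, polymerase theta and PARP1 can act in a second, error-prone joining route, and ATR with CHEK1 holds the cell cycle when replication stalls. The title of the series links m6A on LINE1 RNA to sensitivity to blocked DNA repair, and the lists allow the question of how m6A peaks lie on the RNAs of the repair genes themselves.

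Several lists go against their labels, and every direction below is as labelled. Of the member peaks in the libraries labelled OVCAR8 knockdown, 99.04% overlapped a peak of SKOV3 control and 92.4% one of OVCAR8 control (means of 4 pairs of lists). Of those labelled SKOV3 knockdown, 80.3% overlapped a peak of OVCAR8 control and 71.3% one of SKOV3 control. With RKO control the shares were 91.4% for the OVCAR8 label and 88.5% for the SKOV3 label. Sharing of member peaks alone therefore does not tell the lines apart. Over all peaks, OVCAR8-labelled knockdown shared 95.9% with SKOV3 control and 69.3% with OVCAR8 control. SKOV3-labelled knockdown shared 81.9% with OVCAR8 control and 56.5% with SKOV3 control. In the list labelled RKO knockdown, 89.6% of member peaks were shared with RKO control, although over all peaks only 45.1% were. The background of the peak caller, estimated from the deposited folds or scores, stood at a knockdown over control ratio of 0.982 for OVCAR8, 0.955 for SKOV3, 1.15 for LOVO and 0.482 for RKO. The 2 colorectal values assume that the deposited score is a fold. How this background follows the number of reads was not checked. METTL3 itself had 0 to 3 peaks in any list, which does not check the knockdown. Of the 6 ovarian markers looked at, WT1, EMX2 and SOX17 had no peak in any list, and MUC16 peaks numbered 5 and 5 for OVCAR8 control, 5 and 6 for SKOV3-labelled knockdown and 0 for every other list. MECOM had 14 and 14 for OVCAR8 control, 8 and 7 for SKOV3-labelled knockdown and 0 for the other 4 ovarian lists, but 1 to 14 in the colorectal lists. PAX8 did not follow this: it had 6 and 6 in OVCAR8 control and 0 and 0 under that line's knockdown label, 3 and 3 in SKOV3 control and 5 and 4 under its knockdown label, and up to 5 in the colorectal lists. Of the 7 colorectal markers, each had a peak in a LOVO list, only CDX2 had one in RKO, in control, and none had one in an ovarian list. A peak needs RNA that is present and methylated, so a missing peak cannot be told apart from a lower RNA level. The input libraries were not analysed here.

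Letters of RNA under a peak could be shown only where a peak reached into a RefSeq promoter window (250 bases before to 50 after a gene's start, GRCh38.p14). Windows were held for 26 members, 37 in all, and in 5 members a same-strand peak reached one. They were searched for GGACT and GGACA, forms of the sequence that METTL3 prefers. On the gene's strand GGACT was in 25.3% and GGACA in 25.4% of all 35116 windows (44.2% and 43.8% on either strand), and in 12 and 8 of the 37 member windows. Of the sites inside a member's own body, 3 lay under a peak, and they are shown because they place a motif beneath the start-proximal peaks of the checkpoint genes CHEK1 and ATRIP (5′ to 3′, motif in capitals, plus strand). The first lies at chr11:125625991-125626020, under a peak in 6 lists: both OVCAR8 controls, both libraries labelled SKOV3 knockdown and both LOVO lists. The second lies at chr11:125626197-125626226, under a peak in LOVO knockdown alone, and the third at chr3:48446992-48447021, under a peak in both RKO lists.
CHEK1, GGACA: gtggtgggcaaaGGACAgtccggtgaggaa
CHEK1, GGACT: cgggggcaggagGGACTaacccgctgctag
ATRIP, GGACT: cggcgcgcatggGGACTtcactgccgacga
A match is a description of letters and not a mapped methylation site. In RNF168 the peaks of 9 lists reached the window at the gene's start, and neither motif was found in the covered bases. The window of PARP1 was reached in 5 lists, also without either motif in the covered bases, and that of SHLD3 in 3 lists, upstream of the gene.

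**Figure D1:**
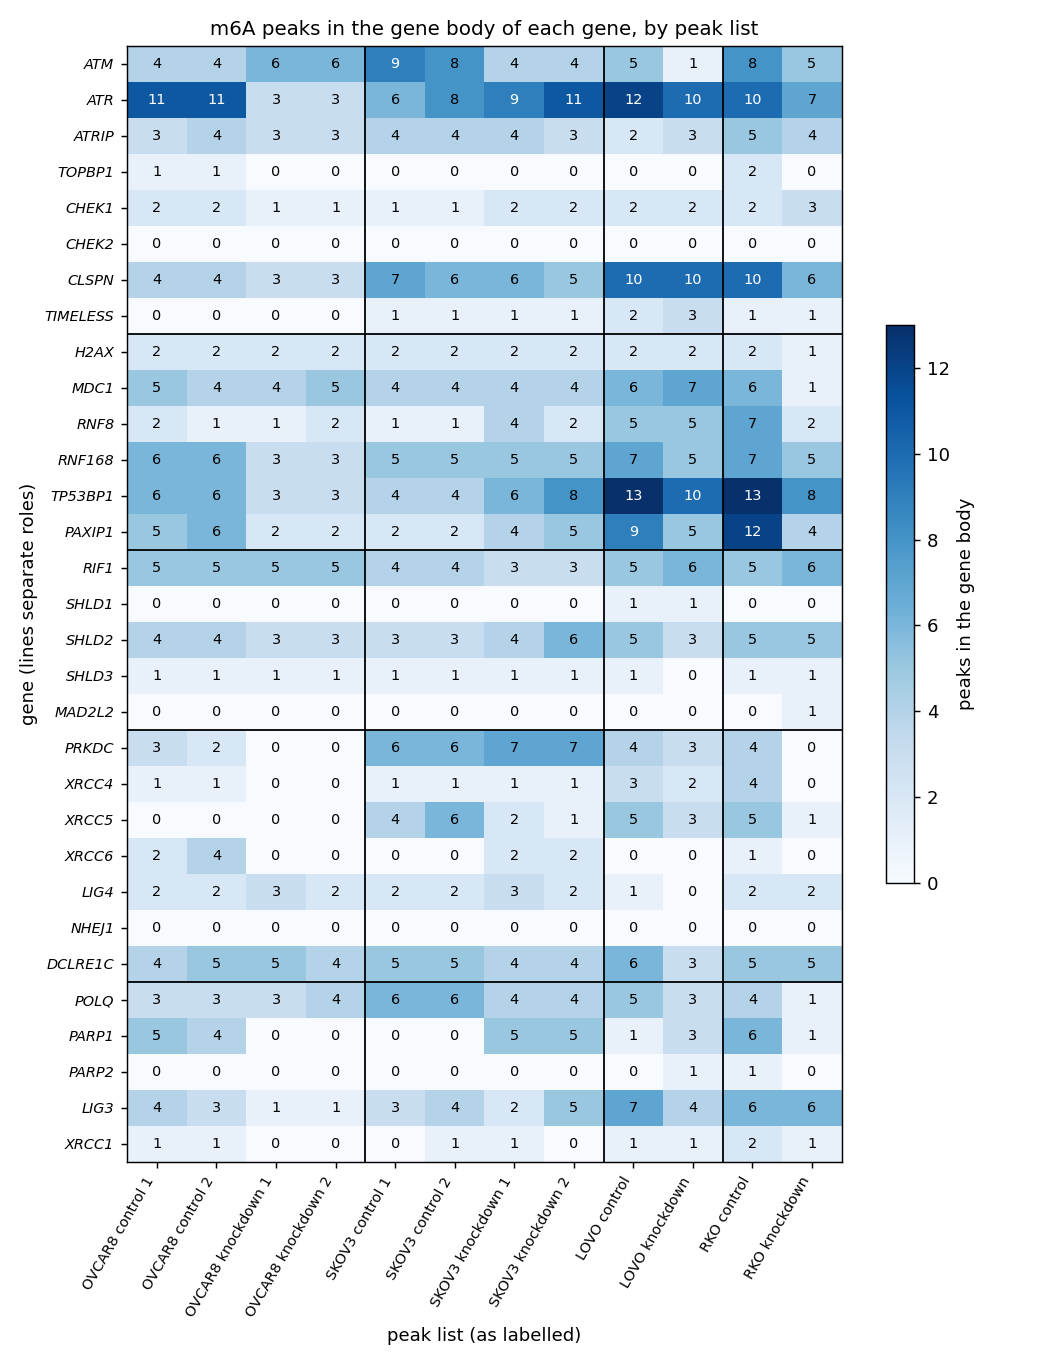
Number of m6A peaks in the gene body of each of the 31 genes (rows, grouped by role, with black lines between groups) in each of the 12 peak lists (columns, as labelled). Darker blue marks more peaks, up to 13 in TP53BP1, and the empty rows are CHEK2 and NHEJ1.

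The number of peaks on a member ranged from 0 to 13 in a list. As the grid of peaks by gene and list shows, 16 members had a peak in all 12 lists, 13 in some and 2 in none. The shares of all genes in these classes are not given here. The 2 without a peak were CHEK2, a checkpoint kinase below ATM, and NHEJ1, a factor that bridges ends with XRCC4. The sum over members was 86 and 86 in OVCAR8 control against 52 and 53 under the knockdown label, and 81 and 85 in SKOV3 control against 90 and 93. In LOVO it was 120 without and 96 with knockdown, and in RKO 136 without and 77 with. The knockdown lists thus held fewer member peaks in OVCAR8, LOVO and RKO as labelled, and more in SKOV3, without overlap between groups in either ovarian line.

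Against the peaks of all genes, the members differed most in RKO. Member peaks were 38.95% fewer in OVCAR8 (mean 86 ± 0 against 52.5 ± 0.71, SD, n = 2 lists each), where peaks in all gene bodies were 45.1% fewer. In SKOV3 the members were 10.2% higher (83 ± 2.8 and 91.5 ± 2.1, SD, n = 2 each) and all gene peaks 6.64% lower. In LOVO the members were 20% lower and all gene peaks 13.1% lower, and in RKO 43.4% and 13.7%. The RKO value is the one that stands farthest from its own genome-wide value, and it rests on 1 list per group and on a knockdown list with a background 0.482 times that of control. With peaks of a fold or score of at least 5 only, the log2 ratio of member peaks was -0.198 in RKO, against -0.82 with all peaks, and -0.33 in SKOV3, against 0.14. This limit cuts the groups unequally. The median score of all gene peaks was 5.22 in RKO control and 8.59 in RKO knockdown. In SKOV3 the median fold was 5.04 and 4.97 in control and 4.47 and 4.33 in knockdown. No ratio over all gene peaks is given at this limit, so the gap between members and all genes is not known there. With equal numbers of peaks per list it was 0.042 in OVCAR8, against -0.71.

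Gene by gene, the calls were read against the share of all genes that met the same rule. In OVCAR8, 14 of the 24 members with a peak had fewer peaks in each knockdown list than in each control list, beside 46.3% of all 11426 genes with a peak, and 1, ATM, had more (all genes: 15.3%). With equal numbers of peaks per list, 7 members had fewer and 5 more in OVCAR8. In SKOV3, 5 of 25 had fewer (all genes: 31.6%) and 9 had more (all genes: 26.3%). In LOVO, where 1 list against 1 was called at 1.5-fold with 1 added to both and a difference of at least 2 peaks, 7 of 26 had fewer (all genes: 14.2%) and 1 had more (all genes: 6.7%). In RKO 12 of 28 had fewer (all genes: 23.4%) and 0 had more (all genes: 16.3%), and with a fold or score of at least 5, 5 had fewer and 2 more. The same limit left 2 members with more peaks in SKOV3. Shares of all genes are not given for this limit or for equal peak numbers. The counts under these 2 settings are therefore not read as a result about the members. Among protein-coding genes alone, 47.6% had fewer and 14.2% more peaks in OVCAR8, 30.4% and 27.5% in SKOV3, 15.5% and 7.88% in LOVO, and 27.3% and 16.3% in RKO. The call rules differ between ovarian and colorectal lines, so these shares are read within a line only.

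Across the 4 lines, no member passed a two-sided exact permutation test of peaks per gene, with labels permuted within each line (0 of 29 members and 0 of 19156 genes at an adjusted p under 0.05; 0 members and 318 genes at an unadjusted p under 0.05, 302 of them lower, or 1.58% of genes). The smallest p that its 144 arrangements allow is 0.0139, and after Benjamini-Hochberg adjustment the smallest p of any gene was 1. The lowest value among members was that of CLSPN, the claspin adaptor of the ATR pathway, with a mean difference of -0.295 on the scale of log2 (peaks + 1), lower in 3 of 4 lines and equal in the other (exact permutation p = 0.0556, adjusted p = 1). The median difference over the 29 members was -0.281 and over all genes tested -0.125.

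**Figure D2:**
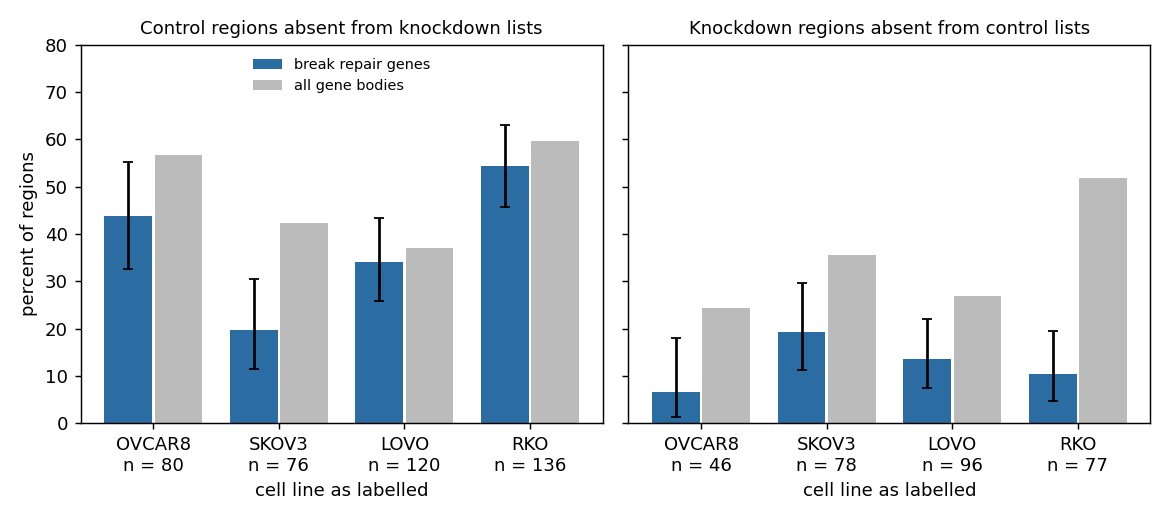
Left, percent of control regions with no knockdown peak; right, percent of knockdown regions with no control peak, by cell line as labelled, for the 31 genes (blue, with the number of regions under each line and exact 95% binomial intervals) and for all gene bodies (grey). The blue bars lie below the grey ones in every line and in both panels, by the least in LOVO on the left (34.2% and 36.9%).

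Regions were then followed one by one. A control region is a stretch of merged same-strand peaks present in every control list of a line, and it is called lost if no knockdown list has a peak there. In the members, 35 of 80 control regions were lost in OVCAR8 (43.75%, exact 95% binomial interval 32.7 to 55.3; all gene bodies 56.7%), 15 of 76 in SKOV3 (19.7%, 11.5 to 30.5; all 42.2%), 41 of 120 in LOVO (34.2%, 25.8 to 43.4; all 36.9%) and 74 of 136 in RKO (54.4%, 45.7 to 62.97; all 59.6%). Member regions were lost less often than gene regions in general in each line as labelled, and in LOVO and RKO the value for all gene bodies lies within the members' interval. These intervals cover only counting error, and regions of a gene are not independent.

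Gained regions are those of a knockdown group with no control peak. They numbered 3 of 46 in OVCAR8 (6.52%; all gene bodies 24.3%), 15 of 78 in SKOV3 (19.2%; all 35.5%), 13 of 96 in LOVO (13.5%; all 26.9%) and 8 of 77 in RKO (10.4%; all 51.9%). The gap to all gene bodies was widest in RKO. With a fold or score of at least 5 the RKO members gained 33.8% (23 of 68) and all gene bodies 62.8%, and the OVCAR8 members 0 of 22. In SKOV3 lost and gained regions were equal in number, at 15 each. When the ovarian knockdown lists were exchanged, 6 of the 80 OVCAR8 control regions in members (7.5%) had no peak in the libraries labelled SKOV3 knockdown. Over all gene bodies this share was 14.0%. Of the 76 SKOV3 control regions, 31 (40.8%) had none in those labelled OVCAR8 knockdown, for which the share over all gene bodies is not given here.

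Among the apical kinases and checkpoint genes, ATR carried most peaks, followed by CLSPN and ATM. ATR, the kinase of stalled replication forks (chromosome 3, 142449235 to 142578733, minus strand), had 11 and 11 peaks in OVCAR8 control and 3 and 3 under the knockdown label, 6 and 8 against 9 and 11 in SKOV3, 12 against 10 in LOVO and 10 against 7 in RKO. As labelled, the direction differed between the ovarian lines, but with a fold of at least 5 the SKOV3 difference was -0.5 peaks, against 3 with all peaks, and the OVCAR8 difference -3. In all, 7 ATR control regions were lost in OVCAR8, 5 in LOVO, 5 in RKO and 0 in SKOV3. Most of its peaks lay in a cluster about 100 kb from the start, where a merged region of 3378 bp (142477939 to 142481316) held a peak in all 12 lists.

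ATM, the kinase activated by double-strand breaks (chromosome 11, 108223067 to 108369102, plus strand), was the only member with more peaks in each OVCAR8-labelled knockdown list than in each OVCAR8 control list. It had 4 and 4 peaks in OVCAR8 control against 6 and 6, 9 and 8 in SKOV3 control against 4 and 4, 5 in LOVO against 1, and 8 in RKO against 5. ATM lost at least 1 region in every line as labelled (1 in OVCAR8, 4 in SKOV3, 4 in LOVO, 5 in RKO) and gained 3 in OVCAR8. A region of 2021 bp about 39 kb from its start (108261205 to 108263225) was present in all 12 lists. Its last regions lie under C11orf65, a gene on the opposite strand. With peaks that overlap no other gene, the OVCAR8 difference was 0.5 peaks, against 2 with all peaks, and no longer met the call rule, and the RKO difference was 1 peak more in the knockdown list, against 3 fewer. A fold or score of at least 5 gave the same 0.5 and 1, and a LOVO difference of 0.

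**Figure D3:**
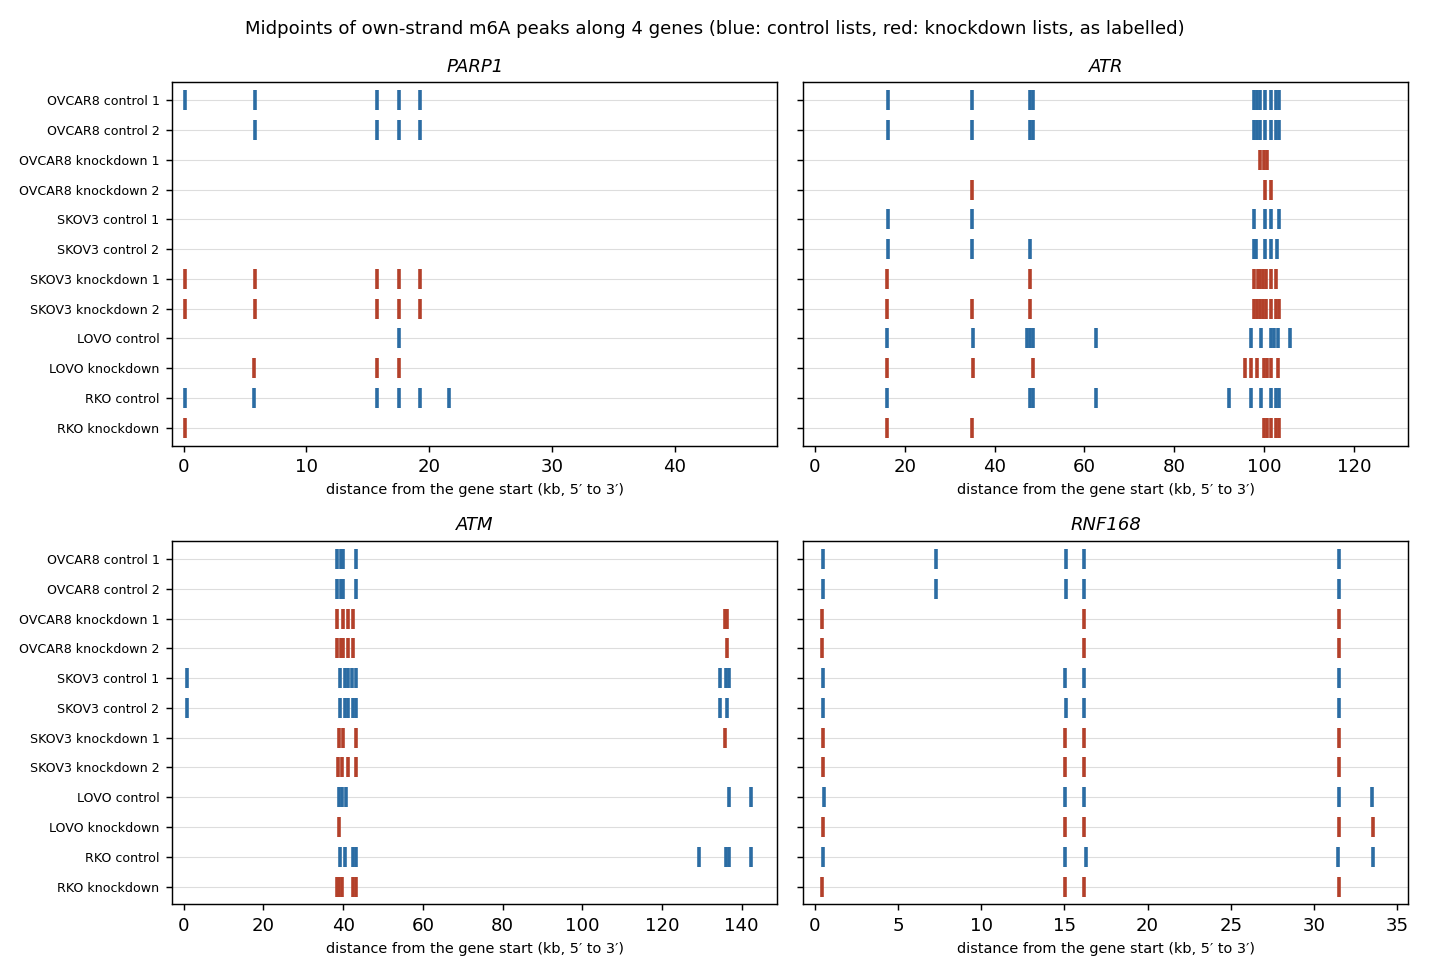
Midpoints of own-strand peaks along PARP1, ATR, ATM and RNF168, as distance from the gene start in kb, with 1 row per list (blue control, red knockdown, as labelled). PARP1 is empty in OVCAR8 knockdown and SKOV3 control, ATR and ATM each hold a cluster that all lists share, and RNF168 holds 3 positions present in every list.

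The other checkpoint genes were more even. CLSPN (chromosome 1, 35720213 to 35769978, minus strand) had 4 and 4 peaks in OVCAR8 control and 3 and 3 under the knockdown label, 7 and 6 against 6 and 5 in SKOV3, 10 and 10 in LOVO, and 10 against 6 in RKO. CLSPN had 3 regions in all 12 lists, and its region at 35764285 to 35764855 ranked at or above percentile 95.02 of peak strength in every list, with authors' folds or scores of 14.7 to 27.3. ATRIP, the partner that brings ATR to DNA, had 2 to 5 peaks in every list and 2 regions shared by all 12. Both lie under the read-through gene ATRIP-TREX1 on the same strand. The one at 48466915 to 48467970 also lies under TREX1 on that strand and runs past the end of ATRIP at 48467645. CHEK1, the effector kinase of ATR, had 1 to 3 peaks, and 1 region near its 3′ end (125678257 to 125678778) was in all 12 lists. Its start-proximal region, that of the printed GGACA site, separated the ovarian lists. It was present in OVCAR8 control and SKOV3-labelled knockdown and absent from SKOV3 control and OVCAR8-labelled knockdown. The start-proximal region lies under LOC118567325 and the one near the 3′ end under ACRV1, each on the opposite strand. With peaks that overlap no other gene, the CHEK1 difference was 0 in OVCAR8, against -1, and 0 in SKOV3, against 1. The CHEK1 count in SKOV3 turned from 1 more to a mean of 0.5 fewer with a fold of at least 5. TIMELESS, which protects the fork, had 0 peaks in the 4 OVCAR8 lists, 1 in each SKOV3 list, 2 in LOVO control, 3 in LOVO knockdown and 1 in either RKO list. TOPBP1, the activator of ATR, had 1 and 1 in OVCAR8 control, 2 in RKO control and 0 in all other lists.

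The genes that build the chromatin signal at a break all had a peak in every list, and H2AX varied least. H2AX, the histone variant that ATM marks (chromosome 11, 119093874 to 119095465), had 2 peaks in 11 lists and 1 in RKO knockdown, all within 1 region that also reaches into DPAGT1 on the same strand. MDC1, which reads marked H2AX, had 4 to 7 peaks in 11 lists and 1 in the list labelled RKO knockdown, where 5 of its 6 control regions were lost. RNF168, the ubiquitin ligase that writes the mark read by TP53BP1 (chromosome 3, 196468783 to 196503768, minus strand), had 6 and 6 peaks in OVCAR8 control against 3 and 3, 5 in each SKOV3 list, 7 against 5 in LOVO and 7 against 5 in RKO. These RNF168 counts take both strands. The 2 regions lost in LOVO (196472130 to 196472454 and 196502903 to 196503138) lay on the strand opposite to the gene, and the latter was also lost in RKO. On the gene's own strand the OVCAR8 difference was -2 peaks, against -3. RNF168 had 3 own-strand regions in all 12 lists. Among them were 1 over its annotated start (196502768 to 196503777) and 1 toward its end (196471906 to 196472674). The latter was at or above percentile 94.7 of peak strength in every list.

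RNF8, TP53BP1 and PAXIP1 varied more. TP53BP1 (chromosome 15, 43403061 to 43510640, minus strand) had 6 and 6 peaks in OVCAR8 control against 3 and 3, 4 and 4 in SKOV3 control against 6 and 8, 13 in LOVO against 10 and 13 in RKO against 8. In LOVO, TP53BP1 lost 6 regions and gained 3. In SKOV3 it lost 0 and gained 0, although its counts were higher under the knockdown label. PAXIP1, an adaptor that binds TP53BP1, had 5 and 6 against 2 and 2 in OVCAR8, 2 and 2 against 4 and 5 in SKOV3, 9 against 5 in LOVO and 12 against 4 in RKO, where 8 regions were lost. No strand was held for PAXIP1, and its counts take both strands. Of its 4 regions lost in LOVO, those at 154944009 to 154944505 and 154950773 to 154950968 lay on the plus strand. The others lay on the minus strand. The region at 154944009 lies under PAXIP1-AS2 on the same strand. As labelled and with all peaks, PAXIP1 and TP53BP1 had fewer peaks under knockdown in 3 lines and more in SKOV3. This pattern did not hold under other settings. For TP53BP1 the OVCAR8 difference was 0.5 peaks with equal peak numbers and 0.5 with a fold of at least 5, against -3, and in SKOV3 and RKO it was 0 with a fold or score of at least 5. For PAXIP1 it was -0.5 in OVCAR8 under either setting, against -3.5, and 0.5 in SKOV3 with a fold of at least 5, against 2.5. RNF8, the ligase that acts before RNF168, had 1 to 5 peaks in 11 lists and 7 in RKO control, where the knockdown list had 2 and 6 regions were lost.

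Of the end protection genes, RIF1 and SHLD2 carried peaks in every list. RIF1, which TP53BP1 recruits (chromosome 2, 151409902 to 151534435, plus strand), had 5 peaks in each of the 4 OVCAR8 lists, 4 and 4 in SKOV3 control against 3 and 3, 5 against 6 in LOVO and 5 against 6 in RKO. In SKOV3 RIF1 lost 0 regions and gained 1, so its lower count there does not mark a lost region. Its merged region of 3398 bp (151462825 to 151466222) was in all 12 lists. The shieldin subunit SHLD2 had 4 and 4 against 3 and 3 in OVCAR8, 3 and 3 against 4 and 6 in SKOV3, 5 against 3 in LOVO and 5 and 5 in RKO. The SHLD2 difference turned to 0.5 in OVCAR8 with equal peak numbers and to -0.5 in SKOV3 with a fold of at least 5. Its partner SHLD3 had 1 peak in every list but LOVO knockdown, in a region that lies under TRAPPC13 on the same strand. SHLD1 had 1 peak in each LOVO list and 0 elsewhere, and MAD2L2, the shieldin subunit REV7, had 1 peak in RKO knockdown and 0 elsewhere. End protection was the role with the lowest share of lost regions in OVCAR8 (3 of 10, all gene bodies 56.7%), LOVO (3 of 12, all 36.9%) and RKO (3 of 11, all 59.6%). In SKOV3 0 of 8 were lost, as were 0 of 17 in the chromatin signalling genes (all 42.2%). These counts of regions are small, and the ranks of roles were not tested.

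In classical end joining, PRKDC, XRCC4, XRCC5 and XRCC6 each had 0 peaks in some lists, and their counts differed between cell lines. PRKDC, the DNA-PKcs kinase (chromosome 8), had 3 and 2 peaks in OVCAR8 control against 0 and 0, 6 and 6 in SKOV3 control against 7 and 7, 4 in LOVO against 3 and 4 in RKO against 0. XRCC5, the Ku80 subunit (chromosome 2, 216109348 to 216206293), had 0 in all 4 OVCAR8 lists, 4 and 6 in SKOV3 control against 2 and 1, 5 in LOVO against 3 and 5 in RKO against 1. XRCC6, the Ku70 subunit, had 2 and 4 for OVCAR8 control, 2 and 2 for SKOV3-labelled knockdown, 1 for RKO control and 0 in the other 7 lists. With a fold or score of at least 5, the RKO difference was 0 for PRKDC and 0 for XRCC5, and the SKOV3 difference 0 for PRKDC, -0.5 for XRCC5 and 0 for XRCC6. With all peaks the Ku subunits did not carry their peaks in the same ovarian lists, except in the libraries labelled SKOV3 knockdown, where both did.

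XRCC4, the partner of DNA ligase IV, had 1 and 1 peaks in OVCAR8 control against 0 and 0, 1 in each SKOV3 list, 3 against 2 in LOVO and 4 against 0 in RKO. With PRKDC, ATM and LIG3 it was 1 of the 4 members with a lost region in every line as labelled. The share of all genes with such a loss is not given here, so the 4 are not read as a result about the members. In SKOV3 XRCC4 lost 1 region and gained 1, and its count stayed at 1. LIG4, DNA ligase IV, had 2 or 3 peaks in every list but those of LOVO, which had 1 in control and 0 after knockdown. DCLRE1C, the Artemis nuclease, had 3 to 6 peaks in every list, and its SKOV3 difference was -1 with all peaks and 1 with a fold of at least 5. Of its 5 merged regions 3 lay on the strand opposite to the gene, and both of those present in all 12 lists were among them. The one at its 3′ boundary (14896805 to 14897513) lies under SUV39H2, which is transcribed from that strand. DCLRE1C counts are therefore open to the signal of other transcripts, which was not tested.

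In alternative end joining and single-strand break repair, PARP1 was the member whose presence followed the ovarian lists most sharply. PARP1, which senses breaks and builds poly(ADP-ribose) (chromosome 1, 226360691 to 226408093, minus strand), had 5 and 4 peaks in OVCAR8 control against 0 and 0 under the knockdown label, and 0 and 0 in SKOV3 control against 5 and 5. In LOVO it had 1 against 3, and in RKO 6 against 1. Of its 6 merged regions, 4 were present in all 4 lists of OVCAR8 control and SKOV3-labelled knockdown. All 4 of these recurred in RKO control, and 3 of them in LOVO knockdown. All 6 lie in the start-proximal part of the gene, at relative positions of up to 0.456 of its length.

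POLQ, polymerase theta, had 3 and 3 peaks in OVCAR8 control against 3 and 4, 6 and 6 in SKOV3 control against 4 and 4, 5 against 3 in LOVO and 4 against 1 in RKO. Its adjoining regions in the middle of the gene (121487517 to 121488526 and 121488691 to 121490536) and 1 nearer the start (121525564 to 121526264) were each in at least 11 lists. LIG3, DNA ligase III, had 4 and 3 against 1 and 1 in OVCAR8, 3 and 4 against 2 and 5 in SKOV3, 7 against 4 in LOVO and 6 and 6 in RKO. The LIG3 difference in OVCAR8 was 0 with equal peak numbers and 0 with a fold of at least 5, against -2.5. Its region at 34982910 to 34983530 was in all 12 lists. XRCC1, the scaffold that holds LIG3, had 0 to 2 peaks, and PARP2 had 1 peak in LOVO knockdown, 1 in RKO control and 0 elsewhere. By role, this group had the highest share of lost regions in OVCAR8 (7 of 11, all gene bodies 56.7%), LOVO (6 of 14, all 36.9%) and RKO (13 of 19, all 59.6%). In SKOV3 it was classical end joining (6 of 18, all 42.2%). In LOVO the order rests on less than 1 region, at 42.9% against 42.1% for classical end joining. The ranks of roles were not tested.

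**Figure D4:**
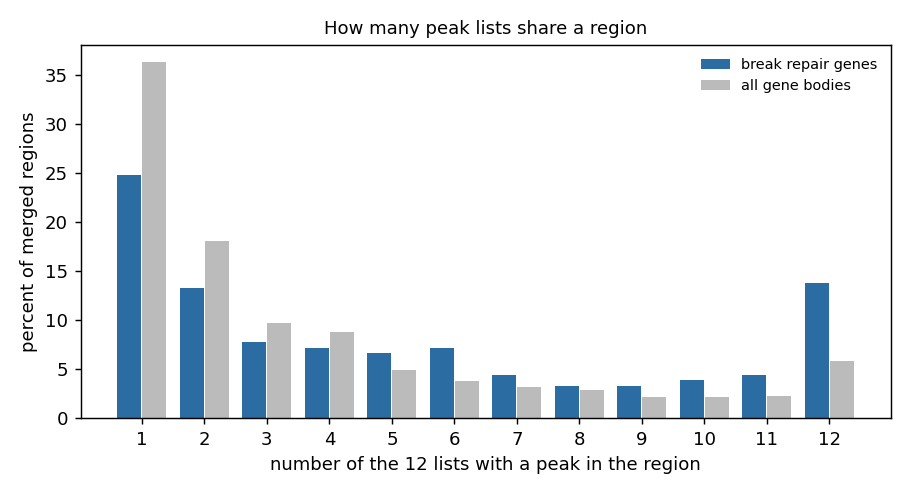
Percent of merged regions (vertical axis) by the number of the 12 lists that hold a peak there (horizontal axis), for the 31 genes (blue, 181 regions) and all gene bodies (grey, 78607 regions). In the 31 genes 13.8% of regions are in all 12 lists and 24.9% in 1 list, against 5.84% and 36.3% in all gene bodies.

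Merging the peaks of all 12 lists gave 181 regions in the members. Of these, 25 were in all 12 lists (13.8%; 5.84% of 78607 regions in all gene bodies) and 45 in 1 list only (24.9%; 36.3%), and they fell in 16 members, as the bar chart of shared lists shows. CLSPN and RNF168 had 3 each in all 12 lists. ATRIP, DCLRE1C, PAXIP1, RIF1 and TP53BP1 had 2 each, and ATM, ATR, CHEK1, H2AX, LIG3, MDC1, POLQ, RNF8 and SHLD2 had 1 each. Member peaks were also somewhat wider and stronger than those of genes in general: the median width was 322 to 397 bp in the 12 lists, against 292 to 326 bp for all gene peaks, and the median percentile of strength 52.04 to 61.6 against 50.2 to 51.2. The part of width and strength in the lower loss of member regions was not tested.

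Strand and position were not used to choose the genes. For the 26 members with a strand in the promoter table, 89.6% to 93.8% of peaks in a list lay on the gene's own strand, against 79.98% to 88.4% for all 27197 genes with a strand. Of 144 merged regions 10 were on the opposite strand, in DCLRE1C, LIG3, RNF168 and TP53BP1. The last 10% of the gene body held 4.35% to 14.8% of own-strand member peaks and 16.1% to 22.8% of those of all genes, and the first 10% held 4.49% to 13.3% and 12.9% to 17.1%. In each list the members' peaks were thus less often near either end of the gene; this was not tested. The members' summed length gave 2.37 to 6.199 peaks per 100 kb, and the Spearman rho between gene length and peaks was 0.0676 to 0.343 over the 31 members, which share each list's depth.

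Other genes of the pathway, 35 in a list set alongside, were counted by the same rules. In OVCAR8, 13 of 23 with a peak had fewer peaks and 2 had more (all genes: 46.3% and 15.3%). SKOV3 gave 9 fewer and 5 more of 28 (all genes: 31.6% and 26.3%), where the members gave 5 and 9. LOVO gave 5 and 2 of 28 (all genes: 14.2% and 6.7%), and RKO 10 and 1 of 30 (all genes: 23.4% and 16.3%). BABAM2, a subunit of the BRCA1-A complex, had 11 and 9 peaks in OVCAR8 control against 2 and 3, 7 and 7 in SKOV3 control against 9 and 8, 11 against 4 in LOVO and 14 against 3 in RKO. RNF169, a reader of the RNF168 mark, had 6 and 5 against 2 and 2, 5 and 6 against 6 and 6, 10 against 3, and 14 against 2. DYNLL1, a light chain that binds TP53BP1, had 5 and 5 against 3 and 2, 3 and 2 against 4 and 5, 6 against 4, and 4 against 3. KAT5, the acetyltransferase that activates ATM, had 5 and 5 against 3 and 3, 3 and 5 against 5 and 4, 3 against 3, and 3 against 4. These 4 genes carried the most peaks of the list. Over all 35 genes, 23 of 46 control regions were lost in OVCAR8. SKOV3 gave 13 of 48, LOVO 31 of 83 and RKO 73 of 109 (66.97%, against 59.6% over all gene bodies and 54.4% in the members).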

How the data were processed

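Peak lists of 12 groups or libraries were analysed, out of 16 MeRIP and 16 input libraries. Per the labels' protocols, spike-ins were added to chromatin-associated RNA before its m6A pull-down, and strand-specific libraries were read from both ends. Per the submitters' processing notes, the tools were MACS2 2.2.7.1, HISAT2 2.1.0, Bowtie2 2.4.2 and Trim Galore 0.6.6 with build hg38; the notes as held here give no role or order. For OVCAR8 and SKOV3 the authors deposited 1 list per library, with a fold enrichment (a linear ratio) and −log10 p and q values per peak, as deposited by the authors. For each LOVO and RKO group there is 1 deposited list, whose peaks carry a score of at least 3 that no header explains. How the replicates entered it is not stated in the sources used here.

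Counting used gene bodies of the RefSeq table of GRCh38.p14 on chromosomes 1 to 22 and X, with Python 3.11.15, pandas 2.3.3 and scipy 1.17.1. Strength is −log10 p (OVCAR8, SKOV3) or the score. The caller's background was estimated per strand from the steps between frequent folds or scores, which whole reads produce. The counting, loss and permutation code was tested on simulated data. Alternatives covered gene assignment, strand, equal peak numbers, stricter peaks, overlap, region rule, pairing, pseudocount, lists left out and exchanged ovarian knockdown lists. The members and lists were chosen with earlier results of these data known. Values are given in full for the members with most lost (up to 6) or gained (up to 4) regions in a line, those lost in every line and those kept in every list.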

Additional observations from a re-analysis of the deposited data

Results flagged for a closer look

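In 9 of the 31 genes, every knockdown list lay on one side of every control list in OVCAR8 and on the other side in SKOV3, as labelled. The same held for 4397 of 10841 genes with a peak in both lines (40.6%). Of the 31 genes, only 24 had a peak in OVCAR8 and 25 in SKOV3. With a peak in both lines required, the 9 are thus out of at most 24, near the share of all genes. The difference between the lines was not tested, and the labels of these lists are in question. With a fold of at least 5 the SKOV3 difference turned for ATR, CHEK1 and SHLD2, and that in OVCAR8 for TP53BP1. The difference in mean peaks, knockdown minus control, in OVCAR8 less that in SKOV3 was 6.5 for ATM, with 2 more peaks in OVCAR8 and 4.5 fewer in SKOV3. It was -11 for ATR and -9.5 for PARP1. It was -6 for TP53BP1, -6 for PAXIP1 and -5 for XRCC6. It was -3.5 for PRKDC, -3 for SHLD2 and -2 for CHEK1.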

How the results depend on the processing

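Among the recomputed totals, counts of genes and shares of regions, 133 values stayed within tolerance of the reported one, 27 moved beyond it and 4 reversed. The tolerance was 1 SD over lists for the ovarian log2 ratios, the exact 95% binomial interval for the colorectal ratios and all shares of regions, and 1.5 times for counts. For no value below was the cause tested. Counts of members below are given without the share of all genes, and log2 ratios without the ratio over all gene peaks. With peaks that overlap no other gene, the log2 ratio of member peaks was -0.86 in OVCAR8 and 0.26 in SKOV3, 0 members had more peaks in OVCAR8, and ATM had 1 peak more in RKO knockdown. Where lists were reduced to equal peak numbers, the log2 ratio was 0.042 in OVCAR8 and 0.27 in SKOV3. In OVCAR8 7 members then had fewer peaks and 5 more, and 24.4% of control regions were lost (all gene bodies 43.1%). The OVCAR8 difference was then 0.5 for TP53BP1 and 0.5 for SHLD2. With a fold or score of at least 5, the log2 ratio was -0.80 in OVCAR8, -0.33 in SKOV3 and -0.198 in RKO. Members with more peaks were then 2 in SKOV3 and 2 in RKO, and 5 had fewer in RKO. Gained regions were 0% in OVCAR8 (all gene bodies 25.2%), 9.68% in SKOV3 and 33.8% in RKO, and 30.95% of SKOV3 control regions were lost. Reversed differences were 0.5 for TP53BP1 in OVCAR8, -0.5 each for ATR, CHEK1 and SHLD2 and 1 for DCLRE1C in SKOV3, and 1 for ATM in RKO. Where a kept region had to be overlapped by 50%, losses were 56.25% in OVCAR8 (all gene bodies 65.5%) and 64.7% in RKO.

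With the ovarian knockdown lists exchanged, the log2 ratio was 0.089 for OVCAR8 control and -0.66 for SKOV3 control. For OVCAR8, 3 members had fewer peaks and 5 more, and 7.5% of regions were lost (all gene bodies 14.0%). Differences for OVCAR8 were 1.5 for CLSPN, 1 for TP53BP1, 1 for SHLD2, 4.5 for PRKDC and 0.5 for PARP1. For SKOV3, 12 had fewer and 1 more, 40.8% were lost and 0% gained, and differences were -4 for ATR, -1 for TP53BP1, 1 for RIF1 and -6 for PRKDC. With each list left out in turn, members with more peaks in OVCAR8 ranged from 1 to 2. Replicate numbers did not pair the samples (correlation of deviations 0.0087 in OVCAR8 and -0.0084 in SKOV3). With the replicate block 0 genes passed the exact permutation test, as without it. The block allows fewer than the 144 arrangements of the test without it, so its smallest possible p is above 0.0139. A count of 0 therefore cannot show whether the block matters. The number of lists, and in RKO the lower background of the knockdown list, limit what these comparisons can show.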
